A study of Mus musculus with 9 samples.

Results

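The 9 genes described here encode parts of the inflammasome pathway of macrophages. They are the sensors Nlrp3, Aim2 and Naip5, the NLRP3 partner Nek7, the caspases Casp1, Casp4 and Casp8, the pore-forming protein Gsdmd and the cytokine Il18. They were taken by symbol from a list, and all 9 were found, once each, among the 12474 rows of the expression files. Poly(A) RNA was sequenced from RAW264.7, a mouse macrophage-like cell line derived from a virus-induced tumour, with wild-type genotype in every sample. I cells were polarized with 100 ng/ml lipopolysaccharide (LPS) and 50 ng/ml mouse interferon gamma, with potassium iodide at 20 mM present during polarization. M1 cells received the same LPS and interferon gamma without iodide, and Mock cells are the control, for which the labels name no polarizing agent. Each group has 3 libraries. No source used here gives the hours of treatment. There is no group with another salt, so effects of iodide, of potassium and of osmolarity cannot be told apart, and there is no group with iodide alone. Nothing in the labels says that replicate libraries are separate cultures, and the p-values then cover only the spread among the libraries, which may be technical.

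Inflammasomes are cytosolic complexes that form when a sensor meets a microbial product or a sign of cell damage. NLRP3 responds to many disturbances, among them loss of potassium from the cell, AIM2 binds double-stranded DNA, and NAIP5 binds bacterial flagellin. Sensors recruit caspase-1, mostly through the adaptor ASC, and caspase-1 cuts the precursors of interleukin 1 beta and interleukin 18 as well as gasdermin D, whose freed end forms pores in the cell membrane. Mouse caspase-4, also called caspase-11, binds LPS in the cytosol and cuts gasdermin D without a sensor complex. RNA levels do not show whether any of these proteins was cut or active.

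Expression is given in FPKM, which scales the fragments of a gene by its length and by the library total. Library totals recovered from the values were 18370400 to 21202240 fragments in I, 17765680 to 21867430 in M1 and 17431070 to 25470730 in Mock. The 9 genes had between 221 fragments (Il18, in an I library) and 5132 fragments (Nlrp3) per library. Within groups, log2 values of 2 libraries had a Pearson r across genes of 0.9968 to 0.9973. All 10 macrophage markers looked for were in the files, and 9 of them had at least 13.9 FPKM in every library, while Mertk lay between 0.011 and 0.3 FPKM. Their summed level was 2454 to 2567 FPKM in I, 3347 to 3457 in M1 and 4718 to 4808 in Mock, most of the difference being in Lyz2, the lysozyme gene, which averaged 675 FPKM in I, 1138 in M1 and 3155 in Mock. The other 9 summed to 1797 to 1865 FPKM in I, 2233 to 2283 in M1 and 1594 to 1612 in Mock, so their order differs. Cd14, Adgre1, Cd68 and Itgam were higher in M1 (1550, 103, 323 and 51.9 FPKM) than in Mock (752, 21.7, 244 and 14.9). Csf1r, Fcgr1, Spi1 and Ptprc were lower in M1 (69.8, 73.8, 74.1 and 18.5 FPKM) than in Mock (343, 105, 97.4 and 26.6). Whether marker levels bear on any result was not tested. Of 29 markers of 6 other cell types, 4 were in the files, with values between 0.033 and 5.26 FPKM, and the others are not analysed here. Fold changes below are log2 fold changes of FPKM + 1 with their standard error (SE), from limma fitted to all 11156 tested genes, and a gene counts as called where the adjusted p (Benjamini-Hochberg) is under 0.05. The median of all tested genes fell by 0.23 in M1 vs Mock, by 0.07 in I vs M1 and by 0.30 in I vs Mock, against 0.02, -0.01 and 0.00 with median-of-ratios (RLE) scaling. RLE scaling divides each library by its median ratio, so a median near 0 is set by the method. A nearly even split of higher and lower genes under RLE scaling follows largely from this and is not a separate result.

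Under polarization alone 3 of the 9 genes rose and 6 fell in M1 relative to Mock. Casp1, Casp4 and Gsdmd rose, and Nlrp3, Aim2, Naip5, Nek7, Casp8 and Il18 fell. Of all tested genes 85.8% were called in this comparison, with 30.5% higher and 55.3% lower, so the number of calls among the 9 is near the background. Values of M1 and Mock did not overlap for any of the 9, against 86.4% of all tested genes. With RLE scaling 4 rose, 4 fell and 1 was not called, where the background was 43.7% higher and 42.1% lower. Over all genes the split of higher and lower was 3405 to 6166 as deposited and 4870 to 4693 with RLE scaling.

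With iodide added to polarization 4 of the 9 genes rose in I relative to M1, 3 fell and 2 were not called. Aim2, Naip5, Casp4 and Gsdmd rose, Nlrp3, Casp1 and Il18 fell, and Nek7 and Casp8 were not called. Of all tested genes 64.2% were called, with 24.9% higher and 39.3% lower. Values of I and M1 did not overlap for 7 of the 9 genes, against 67.2% of all tested genes. With RLE scaling 5 rose, 3 fell and 1 was not called, Casp8 being the added rise, where the background was 30.4% higher and 32.5% lower. The comparisons M1 vs Mock and I vs M1 use the same M1 libraries, and their values are therefore given side by side and not correlated. In I relative to Mock 3 genes rose (Aim2, Casp4 and Gsdmd) and 6 fell, where 86.8% of all tested genes were called, 28.2% higher and 58.6% lower. All 9 were without overlap in I vs Mock, against 87.1% of all tested genes. With RLE scaling 6 rose and 3 fell in I vs Mock, against a background of 42.9% higher and 42.7% lower, since Casp1, Naip5 and Casp8 turn positive, and over all genes the split of higher and lower was 3146 to 6534 as deposited and 4783 to 4766 with RLE scaling.

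**Figure D1:**
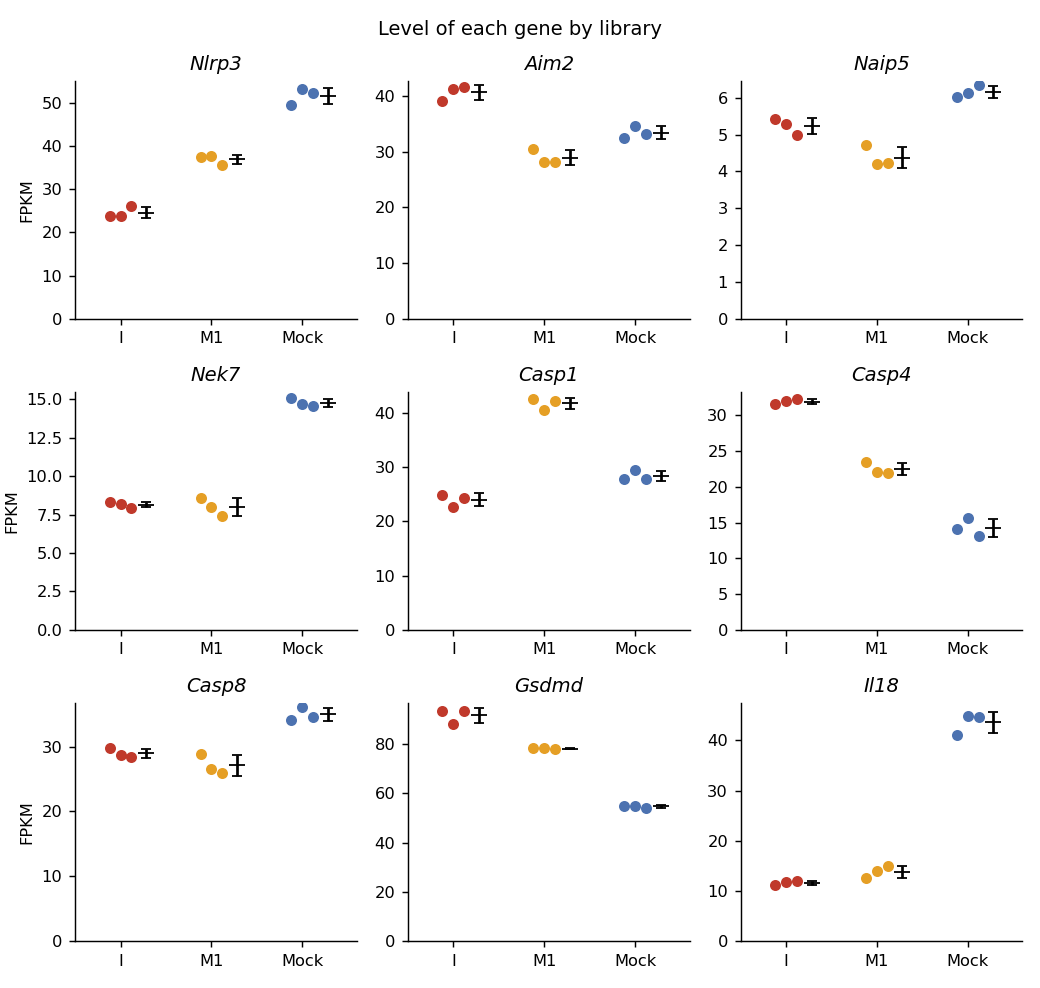
FPKM of each gene (vertical axis, starting at 0) in the 3 libraries of I, M1 and Mock. Points are libraries and the bars give the mean and SD. Casp1 was highest in M1, Casp4 and Gsdmd were highest in I and lowest in Mock, and Nlrp3 was lowest in I.

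**Figure D2:**
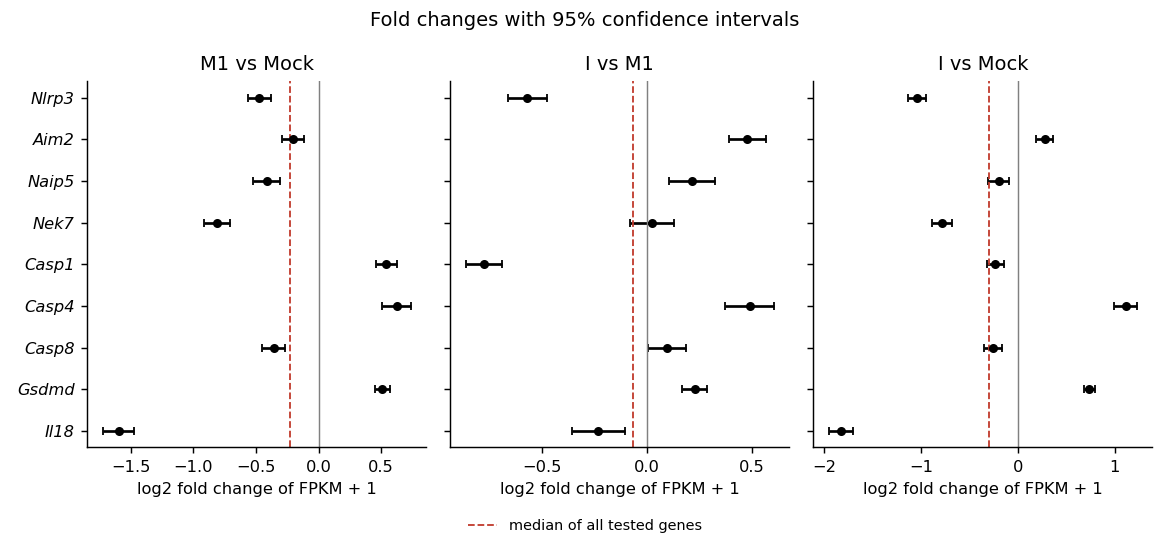
Log2 fold change of FPKM + 1 (horizontal axis) of each gene in each of the 3 comparisons. Bars are 95% confidence intervals from limma, the dashed line is the median of all tested genes and the solid line is 0. In I vs M1 Casp1 and Nlrp3 lie lowest and Casp4 and Aim2 highest.

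Nlrp3 encodes the best-studied sensor of the group (ENSMUSG00000032691.14, GRCm38 chromosome 11, 59541568 to 59566956, plus strand). It had 23.9, 23.8 and 26.1 FPKM in I libraries, 37.4, 37.8 and 35.7 in M1 libraries and 49.7, 53.3 and 52.3 in Mock libraries. All 3 groups were apart, with I lowest and Mock highest. Mean levels were 24.6 ± 1.31 FPKM in I, 37.0 ± 1.09 in M1 and 51.8 ± 1.87 in Mock (SD, n = 3 each, for levels here and below). Nlrp3 fell in M1 relative to Mock (log2 fold change -0.47 ± 0.042, adjusted p = 7.23e-07) and fell again in I relative to M1 (-0.57 ± 0.042, adjusted p = 7.84e-07), to 0.475 of the Mock mean in I. Relative to the median gene the changes were -0.24 and -0.50. In I vs Mock the log2 fold change was -1.04 as deposited, -0.67 with RLE scaling and -0.95 with quantile scaling. The fall in M1 vs Mock was -0.17 with RLE scaling and -0.46 with quantile scaling. That in I vs M1 was -0.51 with RLE scaling and -0.50 with quantile scaling. In bulk RNA a lower level can mean fewer cells with the transcript or less of it per cell, which cannot be told apart.

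Nek7 encodes a kinase that binds NLRP3 and is needed for its activation (ENSMUSG00000026393.10, chromosome 1, 138482875 to 138620141, minus strand). Its values were 8.29, 8.21 and 7.96 FPKM in I, 8.61, 7.99 and 7.42 in M1 and 15.1, 14.7 and 14.6 in Mock. The I and M1 libraries overlapped, and both lay far below Mock. Nek7 fell in M1 relative to Mock (-0.81 ± 0.047, adjusted p = 1.88e-08), and it was not called in I vs M1, where the log2 difference was 0.03 with a 95% interval of -0.08 to 0.13 (adjusted p = 0.653). The iodide step seen for Nlrp3 was therefore not detected in its partner, and the difference between the 2 genes was not tested. An antisense transcript, Gm28501, shares 118 exon bases with Nek7, which is 1.6% of its exons, and whether strand was used in counting is not given.

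Aim2 encodes the DNA sensor (ENSMUSG00000037860.15, chromosome 1, 173350879 to 173466040, plus strand). It had 39.2, 41.3 and 41.6 FPKM in I, 30.6, 28.2 and 28.1 in M1 and 32.5, 34.7 and 33.2 in Mock. The I libraries stood above all others, and the M1 libraries lay just under the Mock libraries. Aim2 rose 1.41-fold in I relative to M1 (log2 fold change 0.48 ± 0.04, adjusted p = 2.31e-06) and was higher in I than in Mock (0.27, adjusted p = 5.7e-05). The small fall in M1 vs Mock (-0.20 ± 0.04, adjusted p = 0.000608) is near the median gene, and with RLE scaling it becomes a rise of 0.10. Nlrp3 and Aim2 thus moved in opposite directions when iodide was added.

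Naip5 encodes the flagellin sensor that works with NLRC4 (ENSMUSG00000071203.6, chromosome 13, 100211739 to 100246323, minus strand). Its values were 5.41, 5.29 and 4.98 FPKM in I, 4.7, 4.2 and 4.22 in M1 and 6.02, 6.12 and 6.34 in Mock. The groups did not overlap, with M1 lowest and Mock highest. Naip5 fell in M1 relative to Mock (-0.42 ± 0.05, adjusted p = 1.12e-05), a call lost with quantile scaling (-0.08), and rose 1.20-fold in I relative to M1 (0.21 ± 0.05, adjusted p = 0.00326). In I vs Mock it fell by 0.20, and that direction reverses with RLE scaling (0.12) and with quantile scaling (0.18). Naip1, Naip2 and Naip6 are paralogs of Naip5, and how reads were divided among these genes is uncertain.

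Casp1, the inflammatory caspase that sensors recruit, and Casp4, the LPS-binding caspase, are neighbours on chromosome 9 and are transcribed from the same strand. On GRCm38 Casp1 spans 5298517 to 5307265 (ENSMUSG00000025888.5) and Casp4 spans 5308828 to 5336783 (ENSMUSG00000033538.13), with 1562 bases from the end of Casp1 to the start of Casp4. Their promoters are shown because the genes moved apart with iodide despite lying side by side. The windows are chr9:5298267-5298566 for Casp1 and chr9:5308599-5308898 for Casp4, from RefSeq on GRCm38.p6, plus strand, and each runs from 250 bases before to 50 bases after a start site. Capitals mark matches to the NF-kB consensus, searched on both strands.
Casp1: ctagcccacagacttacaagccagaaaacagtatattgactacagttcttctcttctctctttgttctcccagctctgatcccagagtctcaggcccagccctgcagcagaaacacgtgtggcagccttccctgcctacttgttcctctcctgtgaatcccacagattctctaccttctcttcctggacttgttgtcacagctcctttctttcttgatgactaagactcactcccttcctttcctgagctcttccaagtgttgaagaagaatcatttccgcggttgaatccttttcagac
Casp4: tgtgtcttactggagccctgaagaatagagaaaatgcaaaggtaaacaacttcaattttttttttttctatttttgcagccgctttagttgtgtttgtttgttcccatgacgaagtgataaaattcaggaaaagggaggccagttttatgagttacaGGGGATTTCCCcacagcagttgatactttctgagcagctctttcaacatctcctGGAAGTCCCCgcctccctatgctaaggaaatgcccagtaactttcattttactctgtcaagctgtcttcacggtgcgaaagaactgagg
The Casp4 window holds 3 matches, of which 2 overlap, beginning 93, 92 and 39 bases before the start site, and the Casp1 window holds none. Of 32851 mouse promoters 8.46% hold at least 1 such match. Neither window held the interferon-stimulated response element, searched as GAAA repeated after a gap of 2 bases and found in 3.44% of promoters, or the gamma-activated site TTCNNNGAA, found in 8.3%. A match is only a run of letters, and no binding was measured. Promoters were found for 8 of the 9 genes, all but Gsdmd, with 10 windows in all. Casp4 has a second window, from base 5308610, which overlaps the one shown and holds the same 3 matches. Among the others Naip5 held 1 NF-kB match. Nlrp3 held 1 in its window from base 59541319 and 0 in its window from base 59542436. The 8.46% is a share of promoters, so a gene with more windows has more chances of a match.

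Casp1 had 24.9, 22.7 and 24.3 FPKM in I, 42.6, 40.6 and 42.1 in M1 and 27.9, 29.4 and 27.9 in Mock. The M1 libraries stood well above both other groups, and every I library lay below every Mock library. Mean levels were 24.0 ± 1.17 FPKM in I, 41.8 ± 1.05 in M1 and 28.4 ± 0.89 in Mock. Casp1 rose 1.47-fold in M1 relative to Mock (log2 fold change 0.54 ± 0.039, adjusted p = 1.26e-07) and fell in I to 0.574 of the M1 mean (-0.78 ± 0.039, adjusted p = 4.82e-08). In I vs Mock it fell by 0.24 (adjusted p = 0.000155), a direction that reverses with RLE scaling (0.13). The Casp1 values are whole fragments only at a gene length of 3136 bases, the 1 length from 200 to 4000 that gave this, whereas GENCODE vM21 gives 1497. Which bases the longer model adds was not identified, so the level of Casp1 beside other genes depends on it. Its changes between groups are in 1 unit throughout, but they include any reads counted on the added bases. Whether those bases reach Casp4, which starts 1562 bases after Casp1, was not tested.

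Casp4 had 31.5, 32.0 and 32.2 FPKM in I, 23.4, 22.1 and 21.9 in M1 and 14.1, 15.6 and 13.1 in Mock. The groups were apart and in the order Mock, M1, I from low to high. Casp4 rose 1.57-fold in M1 relative to Mock (0.62 ± 0.053, adjusted p = 5.1e-07), rose a further 1.42-fold in I relative to M1 (0.49 ± 0.053, adjusted p = 1.42e-05) and was 2.24-fold higher in I than in Mock (1.11, adjusted p = 2.83e-09). Both caspases rose with polarization, and with iodide Casp4 rose while Casp1 fell.

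The ratio of Casp4 to Casp1 within a library is not changed by a scaling that applies 1 factor to each library, such as RLE, though quantile scaling can change it. It was 1.26, 1.41 and 1.32 in I, 0.55, 0.544 and 0.52 in M1 and 0.506, 0.53 and 0.47 in Mock. The I libraries were apart from all others, and those of M1 and Mock overlapped. The mean ratio was 2.48-fold higher in I than in M1 (exact two-sided permutation p = 0.1, the smallest that 3 against 3 allows, and 0.15 after adjustment over 6 tests) and 1.07-fold higher in M1 than in Mock (exact permutation p = 0.2). The ratio of Gsdmd to Casp1 was 3.74, 3.90 and 3.84 in I, 1.84, 1.93 and 1.85 in M1 and 1.97, 1.87 and 1.94 in Mock, which is 2.04-fold higher in I than in M1 (exact permutation p = 0.1). These ratios were chosen after the values had been seen and share Casp1 as denominator. The bases of the longer Casp1 model that were not identified enter both ratios.

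**Figure D3:**
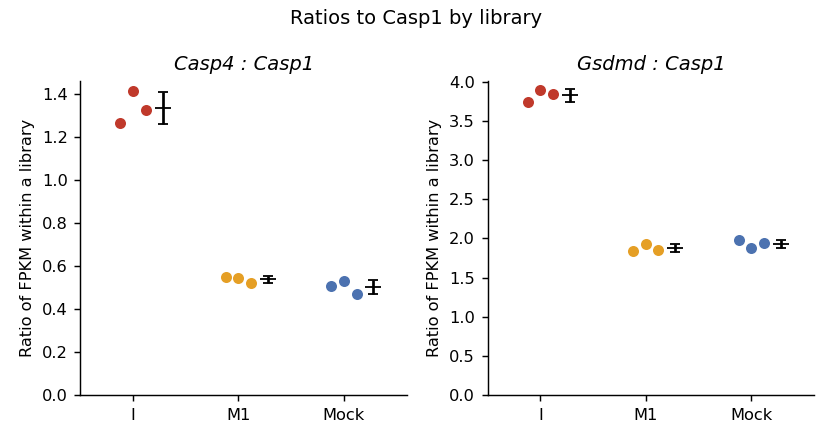
Ratio of FPKM within each library (vertical axis, starting at 0) of Casp4 to Casp1 and of Gsdmd to Casp1, in I, M1 and Mock. Points are libraries and bars give the mean and SD of 3. Both ratios are higher in I, and M1 and Mock overlap in each.

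Casp8 encodes the apoptosis initiator caspase that can also cut gasdermin D (ENSMUSG00000026029.14, chromosome 1, 58795374 to 58847503, plus strand). Its values were 29.8, 28.8 and 28.5 FPKM in I, 28.9, 26.6 and 25.9 in M1 and 34.1, 36.2 and 34.6 in Mock. The I and M1 libraries overlapped and both lay below Mock. Casp8 fell in M1 relative to Mock (-0.36 ± 0.041, adjusted p = 8.09e-06), but under RLE scaling it was not called (-0.05). In I vs M1 it was not called (0.10, 95% interval 0.00 to 0.19, adjusted p = 0.0642), and it was called higher with RLE scaling (0.16), with quantile scaling (0.15), with limma-voom on recovered fragments (0.10) and without M1 replicate 1 (0.14). In I vs Mock it fell by 0.26, which reverses with RLE scaling (0.11).

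Gsdmd encodes gasdermin D, the pore former cut by caspase-1 and caspase-4 (ENSMUSG00000022575.5, chromosome 15, 75862327 to 75867408, plus strand). It had the highest FPKM of the 9 genes in every library, with 93.3, 88.4 and 93.5 in I, 78.3, 78.3 and 77.9 in M1 and 55.0, 55.1 and 53.9 in Mock. The groups did not overlap, and the order was the same as for Casp4. Gsdmd rose 1.43-fold in M1 relative to Mock (0.51 ± 0.027, adjusted p = 7.76e-09) and 1.17-fold in I relative to M1 (0.23 ± 0.027, adjusted p = 2.78e-05).

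Il18 encodes the precursor of interleukin 18, which caspase-1 cuts to its active form (ENSMUSG00000039217.13, chromosome 9, 50554827 to 50581840, plus strand). It had 11.1, 11.7 and 11.9 FPKM in I, 12.5, 13.9 and 14.9 in M1 and 41.2, 44.8 and 44.7 in Mock. Both polarized groups lay far below Mock, and every I library was below every M1 library. Il18 had the largest fall of the 9 genes in M1 vs Mock, to 0.316 of the Mock mean (-1.60 ± 0.057, adjusted p = 2.86e-10), and a further small fall in I vs M1 (-0.23 ± 0.057, adjusted p = 0.00446).

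Over the 9 genes the median log2 fold change was -0.36 in M1 vs Mock, against -0.23 over all tested genes, 0.10 in I vs M1, against -0.07, and -0.24 in I vs Mock, against -0.30. The signs in I vs M1 were the same under deposited, RLE and quantile scaling for all 9 genes.

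**Figure D4:**
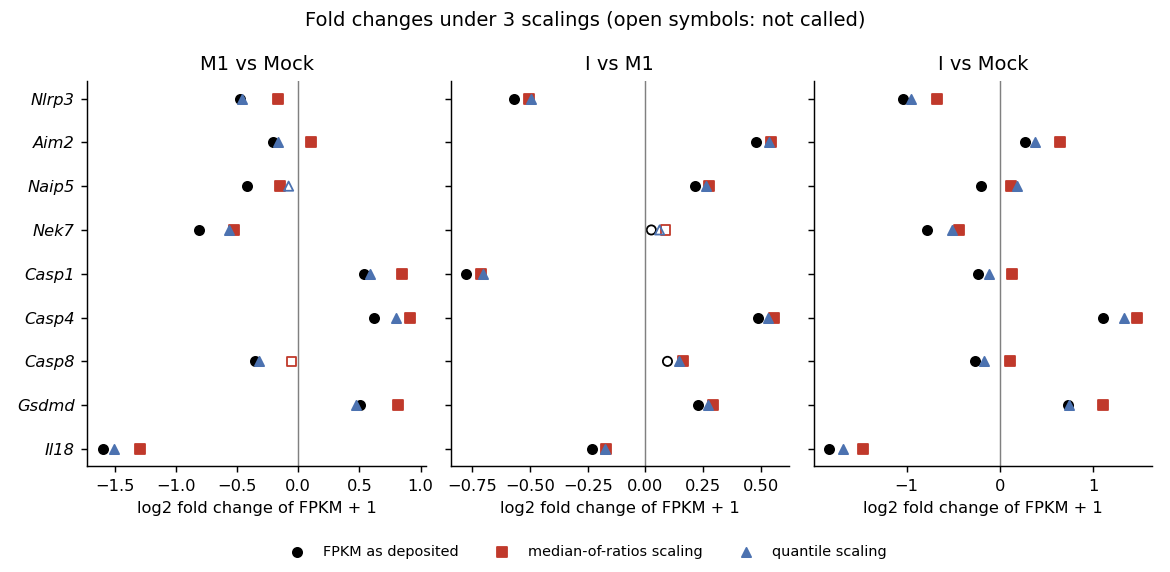
Log2 fold change of FPKM + 1 (horizontal axis) of each gene under the deposited scaling, RLE scaling and quantile scaling, open symbols not called. Direction changes with scaling for Aim2 in M1 vs Mock, and for Naip5, Casp1 and Casp8 in I vs Mock. In I vs M1 each gene stays on 1 side of 0.

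The genes with the most similar profile over the 9 libraries were found by the root-mean-square difference of log2(FPKM + 1), each gene centred on its own mean, among 7687 genes with a group mean of at least 5 FPKM. For Casp1 the closest were Psma6, a proteasome subunit (0.049), and Nfkb2, which encodes an NF-kB precursor (0.058). Psma6 averaged 102 FPKM in I, 174 in M1 and 114 in Mock. For Casp4 they were Ssbp3 (0.064) and Nabp1 (0.065), for Nlrp3 Gclm, a subunit of the glutathione synthesis enzyme (0.052), and Cmtm3 (0.055), and for Gsdmd the histone methyltransferase gene Dot1l (0.035) and Eid1 (0.038). Aim2 was closest to Slc9a4 (0.025) and Tet2 (0.043), Naip5 to Ccdc47 (0.029) and Exoc5 (0.037), and Nek7 to Tm9sf3 (0.031) and Ube2l6 (0.039). Casp8 was closest to Fcgr2b (0.027) and Capza2 (0.036), and Il18 to the immediate early gene Egr1 (0.050) and Zc3h7b (0.055). Among the 9 themselves the nearest pair was Naip5 and Casp8 (0.057).

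The rest of the pathway was read from 6 lists with 62 symbols, 1 of them the older name of Gsdme, of which 48 were in the files and 44 passed the filter of 0.5 FPKM in 3 libraries. Pycard, which encodes the adaptor ASC and is known to be silent in RAW264.7, had 29 fragments over all 9 libraries and lay below the filter at 0.013 to 0.133 FPKM. Counts for each list are to be read against all tested genes, of which 30.5% were higher and 55.3% lower in M1 vs Mock (85.8% called) and 24.9% higher and 39.3% lower in I vs M1 (64.2% called), with medians of -0.23 and -0.07.

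Of 10 tested genes of the wider sensor list, 1 rose, 8 fell and 1 was not called in M1 vs Mock. RLE scaling gave 2 higher and 6 lower, and quantile scaling 3 and 7. The list is broad and includes Nlrc3, Nlrc5 and Nlrx1, and whether each acts as an inflammasome sensor was not tested. The share called was 90.0%, against 85.8% of all tested genes, and the median log2 fold change was -0.64. In I vs M1 1 rose, 5 fell and 4 were not called, but the balance turned with RLE scaling (4 higher, 3 lower) and with quantile scaling (3 higher, 2 lower), and the 60.0% called lay near the 64.2% of all genes (list median -0.10). Nlrp10 fell to 0.428 ± 0.0447 FPKM in M1, against 3.35 ± 0.164 in Mock (log2 fold change -1.61, adjusted p = 2.34e-10). The helicase gene Dhx33 averaged 2.47 ± 0.16 FPKM in M1 and 9.32 ± 0.22 in Mock (-1.57, adjusted p = 7.49e-11), and Nlrp1b 2.13 ± 0.0967 in M1 and 5.51 ± 0.317 in Mock (-1.06, adjusted p = 4.95e-09). Nlrc4, the partner of NAIP5, fell to 1.05 ± 0.0388 FPKM in I, against 1.45 ± 0.141 in M1 (-0.26, adjusted p = 0.00395), while Naip5 rose in the same comparison. Nlrx1 averaged 1.26 ± 0.0599 FPKM in I and 1.65 ± 0.0451 in M1 (-0.23, adjusted p = 0.00255). Zbp1, a nucleic acid sensor of cell death, had 57.2 ± 1.07 FPKM in I and 63.6 ± 0.947 in M1 (-0.15, adjusted p = 0.000354), a call lost with quantile scaling.

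Of 10 tested genes of the list of NLRP3 triggers and regulators, 5 rose and 5 fell in M1 vs Mock (5 and 3 with RLE and with quantile scaling). In that comparison 30.5% of all genes were higher and 55.3% lower. The list is broad and includes Pstpip1, Gbp2, Gbp3, Gbp5 and Gbp7, and whether each acts on NLRP3 was not tested. In I vs M1 none rose, 8 fell and 2 were not called (7 fell and 3 were not called with RLE and with quantile scaling), where 24.9% of all genes were higher and 39.3% lower. The list medians were 0.22 in M1 vs Mock and -0.30 in I vs M1. Txnip, which encodes a thioredoxin-binding protein reported to bind NLRP3, averaged 44.2 ± 1.6 FPKM in I, 85.3 ± 1.4 in M1 and 213 ± 3.51 in Mock, a fall at both steps (-0.93 in I vs M1, adjusted p = 1.59e-09, and -1.31 in M1 vs Mock, adjusted p = 8.01e-12). Gbp5, a guanylate-binding protein gene, rose 8.86-fold in M1 relative to Mock and fell to 16.3 ± 0.347 FPKM in I, against 27.9 ± 0.603 in M1 (-0.74, adjusted p = 3.21e-08). Gbp2 averaged 72.9 ± 2.94 FPKM in M1 and 4.63 ± 0.259 in Mock (3.71, adjusted p = 4.23e-14). Pstpip1 fell in I to 63.1 ± 2.6 FPKM, against 83.2 ± 2.26 in M1 (-0.40, adjusted p = 7.13e-06).

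Of 5 other caspases, 2 rose and 2 fell in M1 vs Mock (3 and 1 with RLE and with quantile scaling), and 2 rose and 2 fell in I vs M1. The 80.0% called in each comparison stands beside 85.8% and 64.2% of all tested genes. Casp6 averaged 17.9 ± 0.106 FPKM in I, 8.19 ± 0.416 in M1 and 2.16 ± 0.0654 in Mock, and was 2.19-fold higher in I than in M1 (1.04, adjusted p = 9.04e-09). Casp2 fell in M1 to 3.94 ± 0.355 FPKM, against 8.37 ± 0.467 in Mock (-0.92, adjusted p = 4.77e-08).

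The 4 genes of gasdermins and membrane rupture or repair tested all fell in I vs M1 under the deposited, RLE and quantile scalings, against 39.3% of all genes called lower as deposited, while Gsdmd rose. Ninj1, which encodes the protein that breaks the membrane after pore formation, had 84.1 ± 4.12 FPKM in I, 109 ± 5.28 in M1 and 62.6 ± 1.89 in Mock (-0.38 in I vs M1, adjusted p = 2.46e-05, and 0.80 in M1 vs Mock, adjusted p = 1.12e-08). The membrane repair genes Chmp3 and Chmp4b averaged 17.3 ± 0.362 and 135 ± 1.41 FPKM in I, against 22.2 ± 0.102 and 158 ± 5.12 in M1 (-0.35, adjusted p = 3.24e-05, and -0.23, adjusted p = 4.17e-05).

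Of 9 genes listed for the caspase-8 death platform, 5 rose and 4 fell in M1 vs Mock (5 and 2 with RLE scaling), and 6 rose, none fell and 3 were not called in I vs M1 (7 rose and none fell with quantile scaling). This list is broad too, with Mlkl, Birc2 and Birc3 among its genes, and whether each acts with caspase-8 was not tested. Of the list 66.7% was called in I vs M1, against 64.2% of all tested genes, of which 24.9% were higher, and in M1 vs Mock all 9 were called, against 85.8%. The list medians were 0.28 in M1 vs Mock and 0.14 in I vs M1. Ripk3, the necroptosis kinase, rose in I to 44.7 ± 1.75 FPKM, against 31.7 ± 0.92 in M1 (0.48, adjusted p = 1.1e-06). Cflar, an inhibitor of caspase-8, averaged 51.5 ± 2.03 FPKM in I, 43.4 ± 1.15 in M1 and 21.1 ± 0.9 in Mock (0.24 in I vs M1, adjusted p = 0.000263, and 1.01 in M1 vs Mock, adjusted p = 5.62e-10). Mlkl, the pore former of necroptosis, averaged 58.5 ± 0.406 FPKM in M1 and 32.2 ± 1.05 in Mock (0.84, adjusted p = 1.53e-10), and the adaptor gene Tradd rose in I to 18.7 ± 1.43 FPKM, against 16 ± 0.45 in M1 (0.21, adjusted p = 0.00381).

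Of 6 genes for interleukin 1 and 18 ligands, receptors and antagonists, 4 rose and 2 fell in M1 vs Mock, and 2 rose, 3 fell and 1 was not called in I vs M1. In M1 vs Mock all 6 were called, against 85.8% of all tested genes, and 83.3% in I vs M1, against 64.2%. Il1b, the other cytokine that caspase-1 cuts, averaged 12 ± 0.426 FPKM in I, 54.6 ± 1.24 in M1 and 0.215 ± 0.0405 in Mock. Il1b was thus higher and Il18 lower in M1 than in Mock (adjusted p = 2.98e-15 for Il1b), and both were lower in I than in M1 (adjusted p = 5.05e-11 for Il1b).

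**Figure D5:**
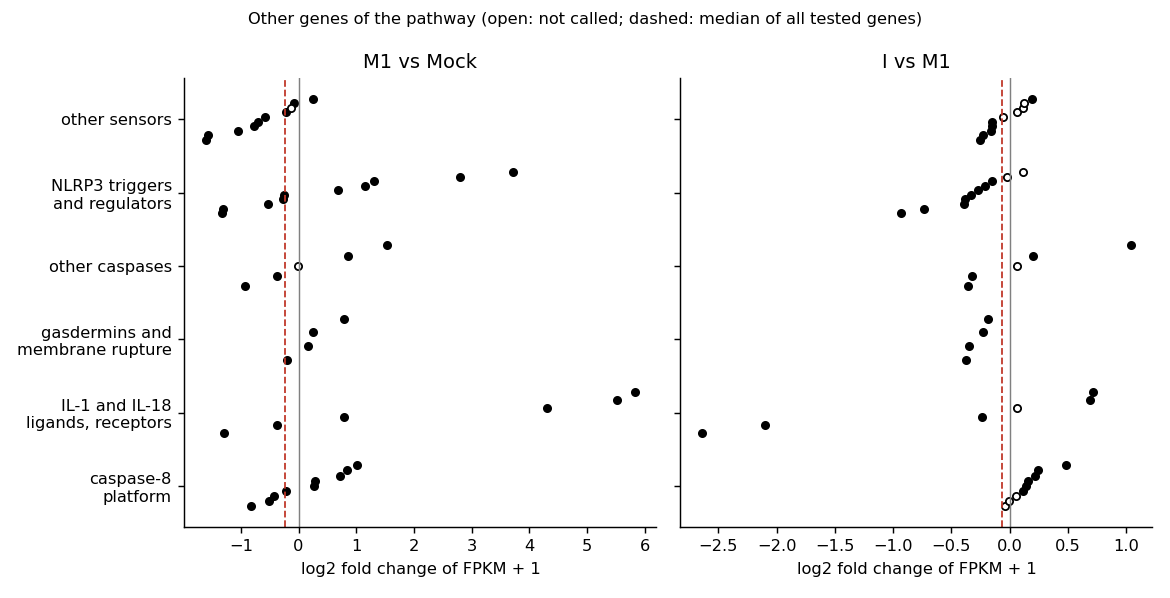
Log2 fold change of FPKM + 1 (horizontal axis) of the 44 tested genes of the 6 lists in M1 vs Mock and I vs M1. Each point is a gene, open points are not called, the dashed line is the median of all tested genes and the solid line is 0. In I vs M1 no called gene of the NLRP3 list lies above 0, and all 4 genes of the gasdermin and membrane list lie below it.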

How the data were processed

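RNA was read in 9 libraries of RAW264.7 cells, 3 each of I, M1 and Mock, grouped by the treatment label. The authors deposited FPKM values, 1 table per library. The unit was inferred from the values, since the headers do not state it. The submitters' processing notes list HISAT2 2.2.1, featureCounts 2.0.1 (Subread), fastp 0.20.1 and GRCm38. Settings, use of strand and annotation: not given in the sources used here. All 12474 rows (12467 symbols, 7 listed 2 times) are above 0 in every library, so a gene with a 0 anywhere is not analysed here.

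GENCODE vM21 gave an exon length for 12204 rows and none for 270. For rows with a length, FPKM multiplied by it gave whole fragments, within 0.05, in 98.4% to 98.6% of values per library and in all libraries for 11996 genes, 8 of the 9 described here among them. Casp1 was whole at another length, found by trying 200 to 4000 bases after its values had been seen, and entered the voom fit at that length. Library totals came from the same steps. No 2 libraries of a group held an identical value, and their mean chi-square per gene was 2.03 to 3.72, so none was a copy.

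limma 3.58.1 in R 4.3.3 was fitted to log2(FPKM + 1) of the 9 libraries, 1 term for each group, with an intensity trend. Rows with at least 0.5 FPKM in at least 3 libraries passed the filter (11156 kept, 1318 removed), and p-values were adjusted by Benjamini-Hochberg over all of them. The log2(FPKM + 1) scale understates the change of low genes, and folds are ratios of mean FPKM. Ratios were compared with an exact permutation test (scipy 1.17.1).

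The 9 genes and the pathway and marker lists were chosen with earlier results of these data known. From each pathway list up to 3 called genes with the smallest p in M1 vs Mock and up to 3 in I vs M1 could be named, and for each of the 9 genes the 2 most similar profiles. Some genes that this rule takes are not reported here. The alternatives were a pseudocount of 0.1, no filter, a filter at 1 FPKM, RLE and quantile scaling, limma-voom on recovered fragments, fits to only the 2 groups compared, a replicate block and leaving out each library. Leaving out libraries for the ratios was added after seeing the data.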

Additional observations from a re-analysis of the deposited data

How the results depend on the processing

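Scaling between libraries was the choice that changed most. With RLE scaling the log2 fold change of Aim2 in M1 vs Mock reversed to 0.10, and in I vs Mock those of Naip5, Casp1 and Casp8 reversed to 0.12, 0.13 and 0.11. With quantile scaling Naip5 in I vs Mock reversed to 0.18. In M1 vs Mock the call of Naip5 was lost with quantile scaling (-0.078) and that of Casp8 with RLE scaling (-0.052). Casp8 in I vs M1 was called with RLE scaling (0.16), quantile scaling (0.15) and limma-voom on recovered fragments (0.10), and its value ranged from 0.064 to 0.14 when single libraries were left out, with a call only without M1 replicate 1. The count of genes called higher in I vs Mock was 4783 with RLE scaling. RLE scaling applies 1 factor to each library, and with it the median of all tested genes in I vs Mock went from -0.30 to 0.00. Why the scalings differ in these data was not tested. A pseudocount of 0.1, no filter, a filter at 1 FPKM and fits to only the groups compared changed none of the 27 calls of the 9 genes. Same-numbered libraries of different groups had correlations of -0.115 to 0.047 in their deviations from the group means. Differently numbered libraries had correlations of -0.085 to 0.119. No pairing by number was visible, but these values cannot show whether the samples were paired. With the replicate block 3396 genes were higher and 6152 lower in M1 vs Mock, 2713 and 4319 in I vs M1 and 3148 and 6515 in I vs Mock, and no call of the 9 genes changed. With libraries left out, the Casp4 to Casp1 ratio was 2.41 to 2.54-fold higher in I than in M1. The 3 libraries of a group limit what can be seen: the exact test on ratios cannot go below 0.1.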
